A study of Mus musculus with 9 samples.

Results

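Chemokine receptors are the seven-pass membrane proteins by which leukocytes read gradients of chemokines, small secreted attractant proteins. The 8 receptor genes Ccr1, Ccr2, Ccr7, Ccrl2, Cxcr2, Cxcr3, Cxcr4 and Cx3cr1 were taken by gene symbol from the 26770 genes of a table of RNA sequencing counts, and all 8 were found once. In the GENCODE annotation of GRCm38 all are protein-coding, with Ccr1 (123962124 to 123968692, minus strand), Ccr2 (124101950 to 124113557, plus strand), Ccrl2 and Cx3cr1 on chromosome 9, Cxcr2 and Cxcr4 on chromosome 1, Ccr7 on chromosome 11 and Cxcr3 on chromosome X. They were measured in cells described as spleen-derived monocytes of wild-type mice, with 3 libraries in each of 3 treatment groups. The cells had been exposed first to low-dose LPS (lipopolysaccharide, from the outer membrane of bacteria, read by a Toll-like receptor) and then to octanal, had received LPS alone, or had been left untreated. Octanal, a fatty aldehyde with a strong odour, was used at 20 µM, and the labels of its 3 libraries give 18, 19 and 20 hours. Cells given LPS alone received 40 ng/ml for 5 hours, and the labels of the octanal libraries give no dose of LPS. The untreated group received the solvent DMSO at a dilution labelled 1 in 1000, 1001 and 1002 in its 3 libraries. Strain, age and sex are not among the labels used here, and they do not state whether each replicate was its own animal or culture, so p-values measure the spread between these libraries, which may be technical. The labels name DMSO for untreated cells alone and do not say that time in culture was equal, so these differences and those of treatment cannot be told apart.

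Most chemokine receptors signal through inhibitory G proteins that turn cells toward a source of ligand, and are then silenced by receptor kinases and arrestins. Ccr2 brings classical monocytes out of the marrow toward Ccl2, Cx3cr1 marks patrolling monocytes, Ccr1 responds to inflammatory CC chemokines and Cxcr2 draws neutrophils toward the Cxcl1 and Cxcl2 type of ligand. Ccr7 guides naive T cells and mature dendritic cells into lymphoid tissue, Cxcr3 marks activated T cells and NK cells, and Cxcr4 holds leukocytes in places rich in Cxcl12. Ccrl2 is an atypical member that does not signal for migration and presents chemerin to neighbouring cells.

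The 250 bases before the transcription start, taken from RefSeq's promoter windows on GRCm38.p6, are shown for a receptor gene that was higher after treatment (Ccrl2) and for the pair with the firmest falls (Ccr1 and Cxcr2). Capitals mark matches, on either strand, to the kappaB pattern GGNNNTTCC or to the PU.1 core GAGGAA, with no overlap between them.
Ccrl2, chr9:111057519-111057768, minus strand: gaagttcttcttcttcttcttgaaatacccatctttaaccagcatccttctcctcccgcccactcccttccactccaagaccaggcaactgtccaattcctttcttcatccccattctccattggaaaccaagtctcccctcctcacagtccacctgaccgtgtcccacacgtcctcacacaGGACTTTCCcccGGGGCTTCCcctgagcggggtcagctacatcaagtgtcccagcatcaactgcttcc
Ccr1, chr9:123968693-123968942, minus strand: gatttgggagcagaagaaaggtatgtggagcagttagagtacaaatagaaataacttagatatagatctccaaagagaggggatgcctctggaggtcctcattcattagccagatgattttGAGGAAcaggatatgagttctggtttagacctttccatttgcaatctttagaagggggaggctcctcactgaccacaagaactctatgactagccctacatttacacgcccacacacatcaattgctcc
Cxcr2, chr1:74153744-74153993, plus strand: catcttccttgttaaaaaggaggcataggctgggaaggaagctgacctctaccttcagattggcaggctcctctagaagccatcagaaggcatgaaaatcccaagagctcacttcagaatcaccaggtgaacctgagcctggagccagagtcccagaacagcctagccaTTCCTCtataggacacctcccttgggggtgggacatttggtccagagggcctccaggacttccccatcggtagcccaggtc
The Ccrl2 window held 2 matches to the kappaB pattern, from 68 to 60 and from 56 to 48 bases before the start. Among the 7 receptors with a promoter entry it was the only one with such a match, and 15.7% of all 32851 promoter windows of this length held one. Ccr7, called higher in LPS, had no entry and was not searched. The transcription start used lay 1583 bases from the GENCODE start for Cx3cr1, 233 for Ccr2 and 122 for Cxcr3. Ccr1, Cxcr2 and Cxcr3 each held 1 match to the PU.1 core, which 23.3% of all windows held. The AP-1 pattern TGANTCA (6.75% of all windows) and the interferon-stimulated response element, searched as 2 GAAA cores with 2 bases between (2.98%), matched none of the 7. The patterns were chosen after these sequences had been seen, and a match describes letters only.

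Total counts were 29594291 to 38388421 per library. Levels are given as CPM, counts brought to a common library total after TMM scaling, and changes as log2 fold changes from a single edgeR fit of all 9 libraries, with p-values adjusted over the 15447 genes tested and a threshold of 0.05. The monocyte label was checked against markers. Csf1r, the receptor for the monocyte growth factor, stood at 379 ± 59.8 CPM in LPS with octanal, 231 ± 46.2 CPM in LPS and 402 ± 222 CPM in untreated libraries (SD, n = 3 each). Ly6c2, the surface antigen that defines classical monocytes, stood at 0.875 ± 0.217, 2.95 ± 4.29 and 139.8 ± 125 CPM in the same order. Untreated replicates 1 and 3 held nearly all of it (168 and 249 CPM). Untreated replicate 2 had 2.82 CPM, below LPS replicate 1 at 7.9 CPM. The 14 neutrophil markers summed to 6155 to 13887 CPM in LPS with octanal, 1921 to 2369 CPM in LPS and 14261 to 27792 CPM in untreated libraries, and the 13 T cell markers to 1430.1 to 2210.3, 2497 to 3126 and 209 to 1346 CPM. No marker of either list was at 0 in all libraries. Much of the neutrophil sums came from S100a8 (2769, 744 and 4155 CPM on average in the same order) and S100a9 (3414, 582 and 7716 CPM). Ly6g averaged 52.2 ± 16.5, 20.3 ± 8.84 and 35.2 ± 25.4 CPM. With octanal against untreated, 12 of the 14 neutrophil markers had a negative log2 fold change, and 2 (Ly6g and Lcn2) a positive one. Mitochondrial genes took 2.31% to 3.1% of counts in LPS with octanal, 4.12% to 7.66% in LPS and 2.2% to 3.99% in untreated libraries. In bulk RNA, fewer cells of a type and less RNA per cell cannot be told apart.

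Against untreated cells, 4 of the 8 receptors were called in LPS with octanal (3 lower and 1 higher), where 8.67% of all genes tested were called, 6.03% lower and 2.63% higher. In LPS, 4 of 8 were called (3 lower and 1 higher), where 32.8% of all genes were called, 17.6% lower and 15.2% higher. The median log2 fold change over the 8 was -0.73 in LPS with octanal and -0.72 in LPS, against -0.01 and 0.01 over all genes. The libraries of the groups did not overlap for 6 of 8 receptors in LPS with octanal (29.8% of all genes) and for 4 of 8 in LPS (51.5%). Both comparisons share the untreated libraries. Ccr1, Ccr2 and Cxcr2 were lower in both. Ccrl2 was the receptor called higher in LPS with octanal, and Ccr7 the one called higher in LPS.

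**Figure D1:**
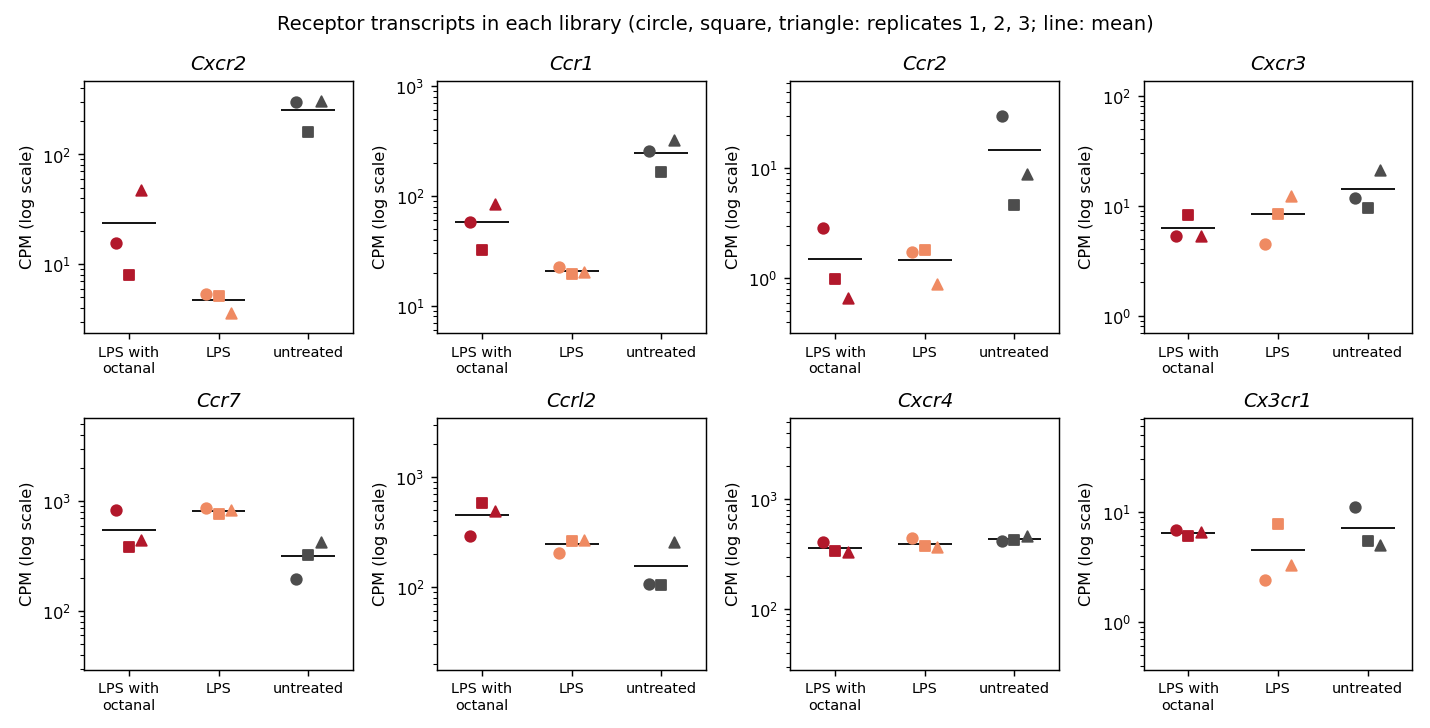
CPM of each receptor in each library on log axes that all span the same ratio, by treatment group, with replicates 1, 2 and 3 as circle, square and triangle and the group mean as a line. Cxcr2, Ccr1 and Ccr2 lie lower in all 6 treated libraries than in all 3 untreated ones, and Cxcr4 lies between 332 and 468 CPM throughout.

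Cxcr2, the receptor for the neutrophil-attracting CXC chemokines, fell in both treated groups. It stood at 15.7, 7.98 and 47.2 CPM in LPS with octanal replicates 1, 2 and 3, at 5.40, 5.17 and 3.6 CPM in LPS and at 299, 159 and 307 CPM in untreated libraries. The 3 groups did not overlap, and LPS with octanal lay between LPS and untreated cells. Against untreated cells this was a log2 fold change of -3.43 with octanal (standard error 0.600, adjusted p = 0.0139) and of -5.75 for LPS (standard error 0.676, adjusted p = 0.00105). It was called in both comparisons whichever library was left out, and without LPS with octanal replicate 3 the first value went to -4.44. Of 3039 windows of 50 bases in Cxcr2 transcripts, 203 (6.68%) also occur in transcripts of other genes, so part of its reads may be shared.

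Ccr1, a receptor of inflammatory CC chemokines on monocytes and neutrophils, had the same order of groups. It stood at 58.2, 31.9 and 83.6 CPM in LPS with octanal, 22.5, 19.6 and 20.5 CPM in LPS and 255, 166 and 320 CPM in untreated libraries. No library of any group reached into the range of another. Set against untreated libraries, LPS with octanal gave -2.09 on the log2 scale (SE 0.342, adjusted p = 0.0106) and LPS gave -3.56 (SE 0.364, adjusted p = 0.000685), and both calls held without any single library.

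Ccr2, the receptor by which classical monocytes follow Ccl2, was low throughout and lowest after treatment. It stood at 2.85, 0.994 and 0.658 CPM in LPS with octanal (20 to 99 counts per library), 1.72, 1.82 and 0.885 CPM in LPS (32 to 67 counts) and 30.1, 4.65 and 8.93 CPM in untreated libraries (142 to 1119 counts). Untreated replicate 1 was far above the other untreated libraries, but each of them was above all treated ones. Relative to untreated cells, the fall on the log2 scale was -3.27 for LPS with octanal (SE 0.784, adjusted p = 0.037) and -3.30 for LPS (SE 0.785, adjusted p = 0.0146). Without untreated replicate 1 these went to -2.20 (adjusted p = 0.097) and -2.24 (adjusted p = 0.0373). The first also went to -4.11 without LPS with octanal replicate 1, and its call was lost without LPS with octanal replicate 2 (-3.05, adjusted p = 0.134) or 3 (-2.93, adjusted p = 0.0966) or any LPS replicate (-3.29 to -3.27, adjusted p = 0.0545 to 0.0594). The second was lost without LPS replicate 3 (-3.05, adjusted p = 0.0522). Of 6758 windows of 50 bases in Ccr2 transcripts, 129 (1.91%) also occur in transcripts of other genes, so a small part of its reads may be shared.

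These 3 falls ran beside falls of myeloid marker genes. Of 14 neutrophil markers, 5 fell in LPS with octanal and 13 in LPS, both against untreated, and of 12 classical monocyte markers 4 fell and 1 rose in LPS with octanal and 7 fell and 1 rose in LPS. Over all genes, 6.03% fell and 2.63% rose in LPS with octanal, and 17.6% fell and 15.2% rose in LPS. The classical monocyte markers summed to 6395 to 9369.7 CPM in LPS with octanal, 3160 to 4311 CPM in LPS and 8148 to 18213 CPM in untreated libraries. The log2 CPM of Cxcr2 minus the mean log2 CPM of the neutrophil markers was -2.47 ± 0.56 in LPS with octanal, -2.50 ± 0.36 in LPS and -0.61 ± 0.51 in untreated libraries. Cxcr2 was thus lower after treatment also relative to the mean of that list, with no overlap, but not relative to each marker. With octanal against untreated the log2 fold changes of the 14 markers ran from -5.27 (Mpo) to 0.57 (Ly6g). Their median was -1.79, against -3.43 for Cxcr2, and in LPS it was -4.38, against -5.75. For Ccr1 the same difference was -0.91 ± 0.15, -0.36 ± 0.34 and -0.64 ± 0.65, and the treated and untreated ranges overlapped (this pair was added after its values were seen). For Ccr2 against the classical monocyte markers it was -6.13 ± 0.89, -5.38 ± 0.47 and -4.30 ± 0.63, with all treated libraries below all untreated ones. How far the number of such cells sets these values was not tested.

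**Figure D2:**
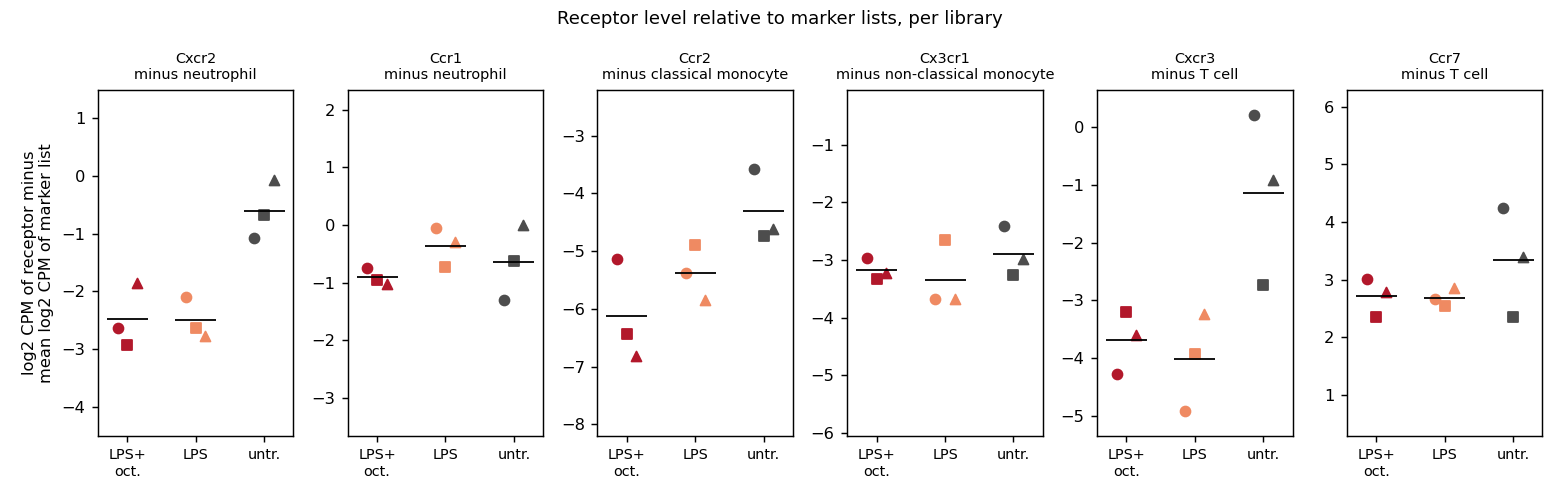
Log2 CPM of a receptor minus the mean log2 CPM of a marker list, per library, by treatment group, with replicates 1, 2 and 3 as circle, square and triangle and means as lines; all axes span 6 log2 units. Cxcr2 stays lower in treated libraries after the mean of the neutrophil markers is subtracted (-2.94 to -1.85 and -2.78 to -2.10 against -1.08 to -0.07). Treated libraries also lie below untreated ones for Ccr2 and Cxcr3, while treated and untreated libraries overlap for Ccr1, Ccr7 and Cx3cr1.

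Ccr7, which guides naive T cells and mature dendritic cells, was the most abundant of the 8 in LPS libraries. It stood at 828, 384 and 444 CPM in LPS with octanal, 866, 757 and 834 CPM in LPS and 194, 325 and 424 CPM in untreated libraries. LPS with octanal replicate 1 was at the LPS level, and replicates 2 and 3 were close to the highest untreated libraries. Ccr7 rose in LPS against untreated by 1.38 on the log2 scale (SE 0.339, adjusted p = 0.0164), and without LPS replicate 1 the call was lost (1.31, adjusted p = 0.0551). With octanal its log2 fold change against untreated was 0.81 (95% interval 0.06 to 1.57, adjusted p = 0.158).

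All 13 T cell markers rose in LPS against untreated, where 15.2% of all genes rose. In LPS with octanal against untreated 0 of the 13 were called, where 2.63% of all genes rose, but all 13 had a positive log2 fold change, with a median of 1.12, and for 10 the libraries of the groups did not overlap (29.8% of all genes). Relative to these markers Ccr7 stood at 2.71 ± 0.34 log2 units in LPS with octanal, 2.69 ± 0.15 in LPS and 3.33 ± 0.94 in untreated libraries, with overlap. Of 10 dendritic cell markers tested, 1 fell in LPS with octanal (Clec10a) and 2 fell in LPS (Clec10a and Itgax), against 6.03% and 17.6% of all genes, and 0 rose in either comparison. The median log2 fold change of these markers was -0.72 with octanal and -0.87 in LPS. Members differed in direction, with 3 positive and 7 negative with octanal and 4 positive and 6 negative in LPS. Fscn1, positive with octanal (0.48, adjusted p = 0.454), stood at 218, 88.6 and 83.7 CPM in LPS with octanal replicates 1, 2 and 3. Its values were 162, 138 and 136 CPM in LPS and 71, 69.1 and 139 CPM in untreated libraries. The part of T cells or dendritic cells in the Ccr7 values was not tested.

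Cxcr4, the Cxcl12 receptor, hardly moved. It stood at 408, 336 and 332 CPM in LPS with octanal, 440.5, 372 and 370 CPM in LPS and 414, 423 and 468 CPM in untreated libraries. All 3 LPS with octanal values were below the lowest untreated one, by a small margin in replicate 1. The log2 fold change was -0.28 in LPS with octanal against untreated (95% interval -0.56 to 0.01, adjusted p = 0.189) and -0.14 in LPS against untreated (-0.43 to 0.14, adjusted p = 0.409). These are the narrowest intervals among the 8 receptors.

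Cxcr3, which recognises the interferon-induced chemokines Cxcl9 and Cxcl10, was low. It stood at 5.24, 8.14 and 5.27 CPM in LPS with octanal, 4.45, 8.46 and 12.2 CPM in LPS and 11.8, 9.43 and 21.2 CPM in untreated libraries. LPS with octanal lay below untreated cells without overlap, but its log2 fold change of -1.19 (95% interval -2.12 to -0.25) did not pass (adjusted p = 0.108), and with the DESeq2 Wald test it did (-1.18, adjusted p = 0.0387). LPS against untreated gave -0.76 (-1.69 to 0.17, adjusted p = 0.183). Relative to the T cell markers Cxcr3 stood at -3.69 ± 0.54 log2 units in LPS with octanal, -4.02 ± 0.84 in LPS and -1.14 ± 1.49 in untreated libraries. The untreated replicates 1, 2 and 3 were spread over 0.22, -2.73 and -0.92. The markers themselves had median log2 fold changes of 1.12 with octanal and 1.77 in LPS against untreated, which enter these differences.

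Cx3cr1, the fractalkine receptor of patrolling monocytes, had 6.79, 6.07 and 6.49 CPM in LPS with octanal, 2.39, 7.70 and 3.26 CPM in LPS and 11, 5.40 and 4.96 CPM in untreated libraries. The groups overlapped. The log2 fold change was -0.15 in LPS with octanal against untreated (95% interval -1.17 to 0.88, adjusted p = 0.861) and -0.68 in LPS against untreated (-1.72 to 0.35, adjusted p = 0.275). Without LPS replicate 2 the second passed (-1.38, adjusted p = 0.0439), and without untreated replicate 1 the first turned to 0.31 (adjusted p = 0.739). Of 11 non-classical monocyte markers, 2 rose and 1 fell in LPS with octanal, where 8.67% of all genes were called, and 2 rose and 3 fell in LPS, where 32.8% were. An antisense gene shares 78 exonic bases with Cx3cr1, and the use of strand in counting is not given in the sources used here.

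Ccrl2, the atypical receptor that binds chemerin, was highest after octanal. It stood at 293, 583 and 491 CPM in LPS with octanal, 204, 264 and 265 CPM in LPS and 106, 105 and 256 CPM in untreated libraries. Every LPS with octanal library was above every other library, and LPS overlapped untreated cells through untreated replicate 3. LPS replicates 2 and 3 exceeded that library by less than 10 CPM. Ccrl2 rose in LPS with octanal against untreated by 1.55 on the log2 scale (SE 0.377, adjusted p = 0.0387). That call was lost without LPS with octanal replicate 2 (1.32, adjusted p = 0.144) or 3 (1.48, adjusted p = 0.104), any LPS replicate (1.54 to 1.55, adjusted p = 0.0633 to 0.0722) or untreated replicate 1 (1.32, adjusted p = 0.127) or 2 (1.32, adjusted p = 0.0736), and the value went to 2.14 without untreated replicate 3. In LPS against untreated it was 0.65 (95% interval -0.19 to 1.49, adjusted p = 0.206), and 1.20 without untreated replicate 3 (adjusted p = 0.0237). The 2 kappaB pattern matches shown above lie in the promoter window of this gene nearest the annotated start, of 3 such windows. A match occurs in 15.7% of all promoter windows, and a link to the rise was not tested.

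**Figure D3:**
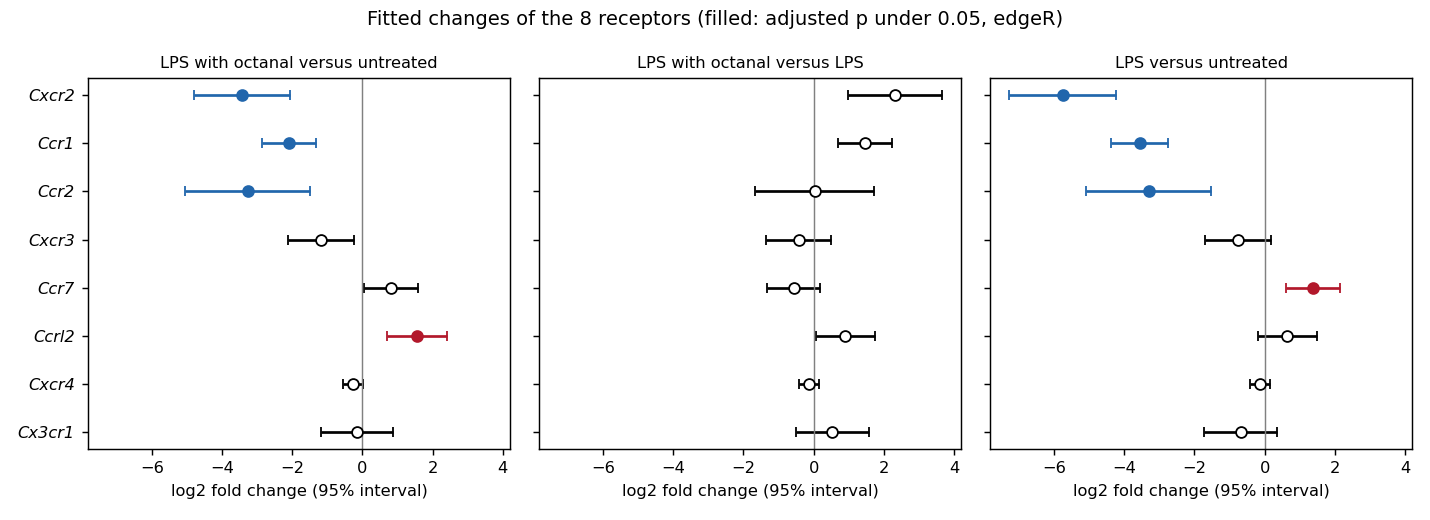
Log2 fold changes of the 8 receptors with 95% intervals in the 3 comparisons, from the edgeR fit of 9 libraries; filled points passed an adjusted p of 0.05, blue lower and red higher. Cxcr2, Ccr1 and Ccr2 are filled on the left in both comparisons with untreated cells, and no point is filled in LPS with octanal against LPS.

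LPS with octanal against LPS sets the octanal group beside LPS alone. The labels of the octanal libraries give no LPS dose, and time in culture may differ. An effect of the octanal step cannot be told apart from these. edgeR called 0 of the 8 receptors, and 0 of all genes (0%), of which 3450 had an unadjusted p under 0.05. Over all genes DESeq2 called 1792 and limma-voom 0. At an unadjusted p under 0.05, 3 of the 8 were higher and 0 lower, against 22.3% of all genes (13.6% higher and 8.69% lower). These 3 were Cxcr2, with a log2 fold change of 2.32 (95% interval 0.98 to 3.66, adjusted p = 0.0812), Ccr1 with 1.47 (0.71 to 2.24, adjusted p = 0.0688) and Ccrl2 with 0.90 (0.06 to 1.74, adjusted p = 0.201). Their libraries did not overlap between these groups, as was so for 38.1% of all genes. DESeq2 called Ccr1 (1.51, adjusted p = 0.000692) and Cxcr2 (2.36, adjusted p = 0.00055), edgeR fitted without the untreated libraries called Ccr1 (1.51, adjusted p = 0.0431), and limma-voom called none of the 8. Ccr1 also passed without untreated replicate 2 (1.495, adjusted p = 0.0439), and without LPS with octanal replicate 3 Cxcr2 went to 1.34 (adjusted p = 0.234).

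The values of Ccr1 and Cxcr2 with octanal moved in the same direction as neutrophil markers, of which 14 of 14 had a positive log2 fold change in the same comparison. Of these markers 0 were called, and 10 were higher at an unadjusted p under 0.05, where 13.6% of all genes were. Their median log2 fold change was 1.92, against -0.05 over all genes. The part of neutrophils was not tested. For the other receptors the intervals of LPS with octanal against LPS were -1.67 to 1.73 for Ccr2, -1.32 to 0.19 for Ccr7, -1.36 to 0.51 for Cxcr3, -0.42 to 0.15 for Cxcr4 and -0.49 to 1.57 for Cx3cr1. Only the Cxcr4 interval lay within a change of 1.5-fold either way. The sign for Ccr2 (0.03) turned without LPS with octanal replicate 1 (-0.79) or LPS replicate 3 (-0.22).

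Levels of different receptors can be compared per transcript length, for which the deposited FPKM (fragments scaled by transcript length and library total) were used. In LPS with octanal libraries Ccr7 averaged 258 ± 120.2, Ccrl2 208 ± 64.4 and Cxcr4 192 ± 29.7 FPKM, and their ranges overlapped. In LPS libraries the order was Ccr7 at 406 ± 33.0, Cxcr4 at 225 ± 25.5 and Ccrl2 at 121 ± 16.4 FPKM, without overlap. In untreated libraries Cxcr4 led at 231 ± 9.81 FPKM, above Ccr7 at 144 ± 50.1, while Cxcr2 (80.3 ± 22.9), Ccr1 (78.7 ± 21.2) and Ccrl2 (67.0 ± 33.6) overlapped. Ccr2 and Cx3cr1, the receptors that mark monocyte subsets, were the lowest in every group by mean, with Ccr2 at 0.379 ± 0.346, 0.393 ± 0.146 and 2.89 ± 2.47 FPKM and Cx3cr1 at 1.51 ± 0.173, 1.04 ± 0.546 and 1.69 ± 0.786 FPKM in LPS with octanal, LPS and untreated libraries.

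As shares of the summed FPKM of the 8, Ccr7 made up 36.4 ± 12% in LPS with octanal, 52.9 ± 1.52% in LPS and 23.3 ± 6.26% in untreated libraries. Ccrl2 made up 31.2 ± 12.3%, 15.9 ± 2.75% and 10.5 ± 3.36%. Cxcr2 made up 1.06 ± 0.975%, 0.198 ± 0.0421% and 13.2 ± 3.81%, and Ccr1 2.74 ± 1.30%, 0.940 ± 0.0314% and 12.8 ± 2.5%. LPS with octanal replicate 1 differed from its own group, with 50.1% Ccr7 and 17.6% Ccrl2, against 27.6% and 41.6% in replicate 2 and 31.6% and 34.4% in replicate 3. The LPS libraries were alike, with 51.1% to 53.9% Ccr7 and 12.7% to 17.9% Ccrl2.

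**Figure D4:**
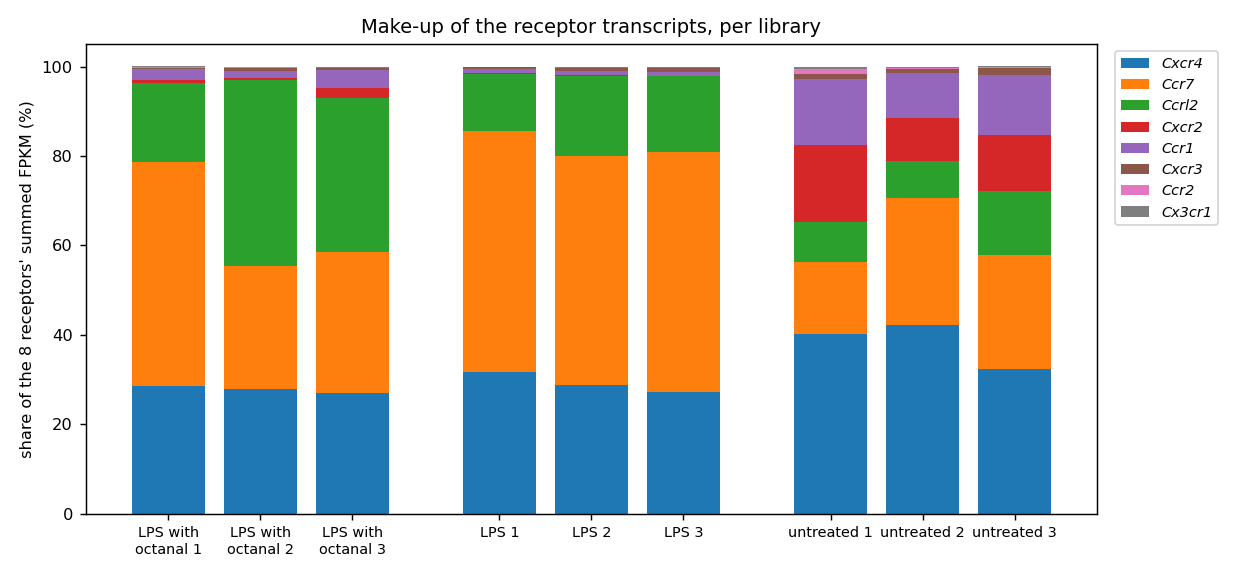
Stacked shares, in percent, of the 8 receptors in their summed FPKM for each of the 9 libraries. Cxcr2 and Ccr1 fill 9.64% to 17.2% and 10% to 14.9% of the untreated bars and at most 2.18% and 4.15% of any treated bar.

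The ligands of these receptors were examined as a list of 22 genes, of which 18 were tested. In LPS with octanal against untreated 6 rose and 1 fell, and in LPS against untreated 7 rose and 1 fell, with median log2 fold changes of -0.02 and 0.47. Over all genes 2.63% rose and 6.03% fell with octanal, and 15.2% rose and 17.6% fell in LPS. The Cxcr2 ligand Cxcl2 averaged 638 ± 149 CPM in LPS with octanal, 349 ± 58.8 CPM in LPS and 29.9 ± 4.18 CPM in untreated libraries, so that it rose against untreated by 4.42 on the log2 scale with octanal (SE 0.232, adjusted p = 0.000171) and by 3.55 in LPS (SE 0.223, adjusted p = 0.00041). Cxcl1 (4.08 and 3.39) and Cxcl3 (2.53 and 1.58), which bind the same receptor, rose in both comparisons as well. Other ligands of Cxcr2 were not called. Cxcl5 averaged 5.45 ± 2.23 CPM in LPS with octanal, 3.99 ± 1.03 CPM in LPS and 3.25 ± 0.913 CPM in untreated libraries, with log2 fold changes of 0.74 (adjusted p = 0.218) and 0.29 (adjusted p = 0.559) against untreated. Ppbp averaged 13 ± 8.14, 19.4 ± 13.8 and 20.5 ± 9.41 CPM in the same groups, with -0.65 (adjusted p = 0.508) and -0.08 (adjusted p = 0.933).

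Among ligands of Ccr1, Ccl3 averaged 818 ± 254 CPM in LPS with octanal, 366 ± 60.5 CPM in LPS and 106 ± 54.9 CPM in untreated libraries, with log2 fold changes of 2.94 (adjusted p = 0.00503) and 1.78 (adjusted p = 0.00916) against untreated. Ccl5, another ligand of Ccr1, rose by 2.69 (adjusted p = 0.00359) and 2.80 (adjusted p = 0.00105) on the log2 scale. Ccl6 fell, at -1.99 (adjusted p = 0.0181) with octanal and -3.07 (adjusted p = 0.00145) in LPS. The first of these Ccl6 calls was lost without LPS with octanal replicate 1 (-1.80, adjusted p = 0.0555) or 2 (-1.76, adjusted p = 0.0768) or untreated replicate 1 (-1.76, adjusted p = 0.0539). Ccl9 averaged 30.2 ± 3.56 CPM in LPS with octanal, 28.2 ± 8.02 CPM in LPS and 64.5 ± 49.8 CPM in untreated libraries. It was not called against untreated, at -1.10 (adjusted p = 0.163) with octanal and -1.19 (adjusted p = 0.0756) in LPS. The Ccr2 ligand Ccl2 stood at 1.83 ± 1.38, 1.11 ± 0.565 and 1.79 ± 0.200 CPM in LPS with octanal, LPS and untreated libraries and was not called. Among the other ligands listed, Ccl8 and Ccl12 had 0 counts in all 9 libraries, and Ccl7 had 0 to 25 counts per library and was not tested. For Cxcr3, Cxcl10 averaged 11.3 ± 6.98, 20.8 ± 8.50 and 3.55 ± 2.40 CPM in the same groups, and its rise in LPS against untreated (2.55, adjusted p = 0.0149) was lost without LPS replicate 1 (2.21, adjusted p = 0.0514) and went to 3.16 without untreated replicate 2. With octanal Cxcl10 was not called against untreated (1.67, adjusted p = 0.113). Cxcl9 averaged 0.254, 0.522 and 0.414 CPM in these groups. It was not called either, at -0.67 (adjusted p = 0.644) with octanal and 0.35 (adjusted p = 0.773) in LPS. Chemerin itself, encoded by Rarres2, was at 0.249, 0.297 and 0.305 CPM on average.

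Of 16 other chemokine receptor genes, 13 were tested. Cxcr5, the follicle-homing receptor of B cells, averaged 9.70 ± 1.96 CPM in LPS with octanal, 10.2 ± 0.826 CPM in LPS and 31.0 ± 18.0 CPM in untreated libraries, with log2 fold changes of -1.68 (adjusted p = 0.0499) and -1.61 (adjusted p = 0.024) against untreated. Both treated groups overlapped the untreated libraries, which stood at 38.9, 43.7 and 10.5 CPM. Ccr6 fell in LPS against untreated (-1.25, adjusted p = 0.0398). These calls were weak. That of Cxcr5 in LPS with octanal held only without untreated replicate 3 among the single libraries left out, that in LPS was lost without any LPS replicate or untreated replicate 1 or 2 (adjusted p = 0.0513 to 0.0767), and that of Ccr6 without any LPS replicate, LPS with octanal replicate 3 or untreated replicate 1 or 2 (adjusted p = 0.0504 to 0.117). The other members tested were not called. Of 9 B cell markers, 3 fell in LPS with octanal and 0 in LPS, against 6.03% and 17.6% of all genes, and 0 rose in either. Their median log2 fold changes were -1.42 and -0.66, and the part of B cells in the Cxcr5 values was not tested.

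Downstream of the receptors, 25 of 27 listed genes for G proteins, arrestins, receptor kinases, RGS proteins and effectors were found and tested. Against untreated, 4 fell and 0 rose in LPS with octanal, and 12 fell and 1 rose in LPS, with median log2 fold changes of -0.18 and -0.50. The shares of all genes that fell were 6.03% and 17.6%, and of those that rose 2.63% and 15.2%. Arrb1, a beta-arrestin that silences receptors, averaged 115 ± 3.59 CPM in LPS with octanal, 82.3 ± 4.49 CPM in LPS and 196 ± 46.0 CPM in untreated libraries, with log2 fold changes of -0.76 (adjusted p = 0.0192) and -1.25 (adjusted p = 0.00115). Arrb2, the other beta-arrestin, averaged 238 ± 19.9, 179.6 ± 10.3 and 287 ± 39.2 CPM in the same groups and fell in LPS (-0.68, adjusted p = 0.00494), with -0.27 in LPS with octanal (adjusted p = 0.188). Grk6, a receptor kinase named here after its values were seen, was the one that rose in LPS (0.42, adjusted p = 0.0252), and its call was lost without any LPS replicate or untreated replicate 1 (adjusted p = 0.0517 to 0.11). Gng2, a G protein gamma subunit, gave -1.35 (adjusted p = 0.027) and -2.29 (adjusted p = 0.00151). Rgs18, a regulator that shortens G protein signals in myeloid cells and platelets, gave -1.56 (adjusted p = 0.0304) and -1.96 (adjusted p = 0.00518), and Rgs2 -0.994 (adjusted p = 0.0256) and -0.998 (adjusted p = 0.00948). In LPS the calls of Arrb1, Gng2, Rgs18 and Rgs2 held without any single library. In LPS with octanal each of the 4 was lost without at least 2 of the libraries, and the count of 4 went to 1 without LPS with octanal replicate 3 or untreated replicate 3 and to 2 without LPS with octanal replicate 1 or 2, LPS replicate 2 or untreated replicate 1. In LPS the count of 13 went to 6 without LPS replicate 1 or 3. In LPS with octanal against LPS edgeR called 0 of the 25, and at an unadjusted p under 0.05 there were 10 higher and 2 lower, against 13.6% and 8.69% of all genes.

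Genes with the pattern most like each receptor were found among 8676 annotated genes with a mean of at least 10 CPM, by the root mean square difference of log2 CPM centred over the 9 libraries. They share libraries and cell make-up with the receptors. Ccr1 was closest to Lrrk2 (0.236 log2 units, where Ccr1 itself spanned 4.02) and Fah (0.252). Cxcr2 was closest to Pi16 (0.311 over a span of 6.38) and to Pglyrp1 (0.379), a neutrophil granule protein. Ccr7 was closest to Cytip (0.102 over a span of 2.16), which averaged 373, 509 and 222 CPM in LPS with octanal, LPS and untreated libraries, and to Dscam (0.152). Ccrl2 was closest to Ggct (0.272 over 2.47) and Prok2 (0.291), a secreted chemoattractant. Cxcr4 was closest to Inpp1 (0.0618 over 0.494) and Entpd5 (0.0644), Cxcr3 to Tmem140 (0.315 over 2.23) and Rmnd5b (0.415), and Cx3cr1 to Leprot (0.261 over 2.16) and Ptgr1 (0.267). Ccr2 was closest to Lgals1 at 0.610 and Eps8 at 0.659, the largest such differences in log2 units among the receptors, over a wide span of 5.34.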

How the data were processed

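Counts per gene and library are whole numbers that the authors deposited without normalization; the FPKM beside them were scaled by the authors, as the file headers name them. The submitters' processing notes name GRCm38 as genome build. Aligner, counter and strand use were not given in the sources used here. Of 26780 lines, 10 without values were left out. Gene positions came from GENCODE M21. R 4.3.3 and edgeR 4.0.16 were used, with TMM factors, filterByExpr and a quasi-likelihood F test on 1 model of the 9 libraries (1 mean for each of the 3 groups), unpaired. The filter kept 15447 genes, all 8 receptors among them, and Benjamini-Hochberg adjustment covered these. Standard errors were derived from fold change and F statistic. DESeq2 1.42.0 and limma 3.58.1 (voom, and on log2(FPKM + 0.1)) were alternatives. Replicate libraries differed far more than counting error allows, with chi-square values of 42.9 to 142 for each degree of freedom. Receptors, lists and patterns were chosen with earlier results of these data known. All 8 receptors were named, with up to 4 called genes of lowest p per list and comparison, ligands beside their receptor, and the 2 genes most like each receptor.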

Additional observations from a re-analysis of the deposited data

How the results depend on the processing

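Of the log2 fold changes of the 8 receptors, 137 alternative values for LPS against untreated, 131 for LPS with octanal against LPS and 122 for LPS with octanal against untreated kept their direction and their side of the threshold. The rest were 2 calls lost and 2 gained in LPS against untreated, 4 gained and 6 turned in LPS with octanal against LPS, and 17 lost, 1 gained and 1 turned in LPS with octanal against untreated. Against untreated, Cx3cr1 in LPS with octanal turned to 0.306 without untreated replicate 1, in a range of -0.326 to 0.306 over the libraries left out. Ccr2 in LPS with octanal against LPS turned to -0.16 with limma-voom, -0.242 and -0.038 with limma on log2(FPKM + 0.1) and log2(FPKM + 1), -0.25 with a replicate block, and in a range of -0.789 (without LPS with octanal replicate 1) to 0.389 over the libraries left out, turning also without LPS replicate 3 (-0.221), with few counts in both groups. The count of receptors called in LPS with octanal against untreated was 2 in a fit of these groups alone and 2 to 4 with a library left out. In LPS with octanal against LPS it was 2 by DESeq2, 1 in a fit of these groups alone and 0 to 1 with a library left out, and in LPS against untreated 3 to 5 with a library left out. Over all genes, LPS with octanal against untreated gave 1339 calls, 2810 by DESeq2, 404 in a fit of these groups alone and 298 to 2137 with a library left out. LPS with octanal against LPS gave 0 calls, 1792 by DESeq2, 1380 in a fit of these groups alone, 279 without a filter, 346 with a filter at 10 CPM and 0 to 584 with a library left out. LPS against untreated gave 5072 calls, and 2387 to 5658 with a library left out. The cause of these moves was not tested. In that comparison 2353 calls were higher and 2719 lower from counts, against 3220 and 2310 with limma on log2(FPKM + 0.1), where the median of all genes shifted by 0.11, and the receptors called were the same 4. Same-numbered libraries share only a number in the labels: their deviations from the group means correlated at -0.09 to 0.18. With the replicate block the receptors called stayed at 4, 0 and 4, and calls over all genes were 923, 0 and 4257 in LPS with octanal against untreated, LPS with octanal against LPS and LPS against untreated. Alternatives for the ligand, other receptor and signalling lists were chosen after seeing the data. At 20 to 99 counts per treated library, Ccr2 is the receptor whose values depth limits most.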
